A study of Mus musculus with 12 samples.

Results

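The 34 genes described here encode chaperones, folding enzymes, translocon subunits and ER-associated degradation (ERAD) factors of the endoplasmic reticulum (ER), together with 3 regulators of the unfolded protein response. They were taken by gene name from the deposited FPKM table (fragments per kilobase of gene length, scaled to the library), which holds 54532 genes. All 34 were found, and all were among the 9743 genes that averaged 1 FPKM or more and were tested. The values are RNA-seq measurements of primary hepatocytes, the parenchymal cells of the liver, from 6-week-old mice. There were 4 groups of 3 libraries. HKO_PA and HKO_BSA cells carried a G3bp1 knockout targeted to hepatocytes and received PA or BSA, while Flox_PA and Flox_BSA cells came from G3bp1-Flox mice, the genotype controls, and received the same additions. The sources used here do not spell out BSA and PA, nor give their dose, the exposure time, or the promoter that drives Cre. The series text states its interest as the role of G3BP1, an RNA-binding protein that nucleates stress granules, in NASH, a fatty liver disease with inflammation.

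Hepatocytes secrete most plasma proteins, and each of these enters the ER through the Sec61 translocon, folds with help from BiP (Hspa5), lectin chaperones and disulfide isomerases, and is either exported or returned to the cytosol by ERAD for destruction. When unfolded proteins accumulate, the sensors IRE1 (Ern1), PERK and ATF6 start the unfolded protein response. The transcription factors XBP1 and ATF6 then bind ER stress elements in promoters of chaperone and ERAD genes.

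The promoters of the 4 members with the largest log2 difference between PA and BSA in Flox cells (Derl3, Creld2, Herpud1 and Sdf2l1) are printed with that of Hspa5, the classic target of this response, to show which of them hold an ER stress element. Each is the 250 bases before the start of the gene in RefSeq (GRCm38.p6), written 5′ to 3′ on the gene's own strand. These starts are RefSeq's and can differ from those of the gene models in the deposited table. Capitals mark an ER stress element (ERSE, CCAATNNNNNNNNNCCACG) in Creld2, Derl3 and Hspa5, an ERSE-II element (ATTGGNCCACG) in Herpud1, and the short element CCACG, the end shared by both, in Sdf2l1. All were searched on both strands, and the capitals in Creld2, Derl3 and Sdf2l1 are on the opposite strand, so that they show the reverse complement.
Creld2, chr15:88819396-88819645, plus strand: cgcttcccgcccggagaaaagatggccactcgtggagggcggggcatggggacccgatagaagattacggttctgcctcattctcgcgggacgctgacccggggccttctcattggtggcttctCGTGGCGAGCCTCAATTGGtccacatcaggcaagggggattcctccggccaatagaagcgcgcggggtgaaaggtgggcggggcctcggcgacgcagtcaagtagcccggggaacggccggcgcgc
Derl3, chr10:75893148-75893397, plus strand: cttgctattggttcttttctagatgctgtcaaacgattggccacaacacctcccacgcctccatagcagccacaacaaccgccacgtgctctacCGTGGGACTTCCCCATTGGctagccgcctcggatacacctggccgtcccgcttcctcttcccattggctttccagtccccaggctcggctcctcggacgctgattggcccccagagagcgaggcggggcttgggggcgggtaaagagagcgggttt
Herpud1, chr8:94386179-94386428, plus strand: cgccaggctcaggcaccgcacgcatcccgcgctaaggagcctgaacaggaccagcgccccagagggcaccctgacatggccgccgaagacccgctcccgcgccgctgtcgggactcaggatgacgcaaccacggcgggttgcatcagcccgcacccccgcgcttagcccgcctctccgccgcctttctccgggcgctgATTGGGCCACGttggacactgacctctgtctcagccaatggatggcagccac
Sdf2l1, chr16:17132384-17132633, minus strand: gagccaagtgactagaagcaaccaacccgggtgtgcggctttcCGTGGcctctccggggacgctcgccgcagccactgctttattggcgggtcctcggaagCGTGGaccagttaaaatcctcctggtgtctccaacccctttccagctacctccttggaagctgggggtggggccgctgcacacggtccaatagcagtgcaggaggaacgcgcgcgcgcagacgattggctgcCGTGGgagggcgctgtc
Hspa5, chr2:34771840-34772089, plus strand: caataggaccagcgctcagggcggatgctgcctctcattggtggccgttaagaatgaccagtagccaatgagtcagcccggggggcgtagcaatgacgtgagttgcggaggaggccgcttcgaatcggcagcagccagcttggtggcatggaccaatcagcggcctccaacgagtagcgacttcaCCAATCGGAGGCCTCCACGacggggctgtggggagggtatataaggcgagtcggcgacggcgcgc

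Counted along the gene, the capitals begin 126 bases before the start in Creld2, 156 in Derl3, 52 in Herpud1 and 65 in Hspa5. The letters between the fixed ends, here in lower case, differ between genes.
Creld2: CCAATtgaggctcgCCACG
Derl3: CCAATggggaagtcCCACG
Hspa5: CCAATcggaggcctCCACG
Dnajc3: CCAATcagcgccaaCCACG
Syvn1: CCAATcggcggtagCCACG
Herpud1: ATTGGgCCACG
Dnajb11: ATTGGcCCACG
The RefSeq promoter table, which runs from 250 bases before to 50 after each start, has an entry for 28 of the 34 members. Hyou1, Hspa13, Manf, Sec61a1, Derl1 and Atf6 were not matched. An ERSE was found in 9 of the 28 (32.1%), in Calr, Canx, Creld2, Derl3, Dnajc3, Hsp90b1, Hspa5, Pdia6 and Syvn1, against 0.119% of the 32851 promoters in the table, and Hsp90b1 had 2 of them. An ERSE-II was found in Herpud1 and Dnajb11 (7.14%), against 0.0365% of all promoters. The UPRE core TGACGTG, the letters of another XBP1 and ATF6 element, occurred in Hspa5 and Txndc5 (7.14%), against 2.01% of all promoters. The short CCACG, which every ERSE and ERSE-II also contains, occurred in 24 of 28 members (85.7%) and in 32.8% of all promoters. Sdf2l1 had 3 copies of CCACG and Pdia4 had 1, with neither full element. The shares of members count genes, of which Txndc5 has 3 promoters and Derl2 2, while the shares of all promoters count promoters. A match is a description of the letters and not a measured binding site.

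The 12 libraries held 15.02 M to 18.42 M reads in genes, of which the 34 members took 0.566% to 0.859%. G3bp1, the targeted gene, had 7.03, 7.39 and 8.09 FPKM in HKO_PA and 7.77, 8.48 and 8.497 FPKM in HKO_BSA, against 39.1, 38.97 and 41.6 FPKM in Flox_PA and 40.02, 37.7 and 45.7 FPKM in Flox_BSA, so each library matched its genotype label. The hepatocyte markers summed to between 10729 and 21130 FPKM in HKO libraries and to between 7658 and 8899 FPKM in Flox libraries. The 12 Kupffer cell and macrophage markers summed to between 79.4 and 147 FPKM in HKO libraries and to between 1564 and 1936 FPKM in Flox libraries. Neutrophil markers summed to between 0.208 and 0.738 FPKM in HKO libraries and to between 17.8 and 25.99 FPKM in Flox libraries, and lymphocyte markers to between 0 and 0.139 FPKM in HKO libraries and to between 0.439 and 1.52 FPKM in Flox libraries. The HKO libraries also varied more: the median SD of a member on the log2 scale was 0.242 in HKO_PA and 0.190 in HKO_BSA, against 0.119 in Flox_PA and 0.0971 in Flox_BSA. HKO_PA 1 stood apart from the other HKO_PA libraries in a way that went with gene length (Spearman -0.46 between its deviation and length over all genes tested). Named calls that rest on HKO_PA 1 are given with and without it. A gene on the opposite strand shares 15.7% of the exon bases of Hsp90b1, 11.9% of those of Txndc5, 9.25% of those of Manf and 8.16% of those of Sec61a1 in GENCODE M21, and no source used here says whether reads were counted by strand.

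**Figure D1:**
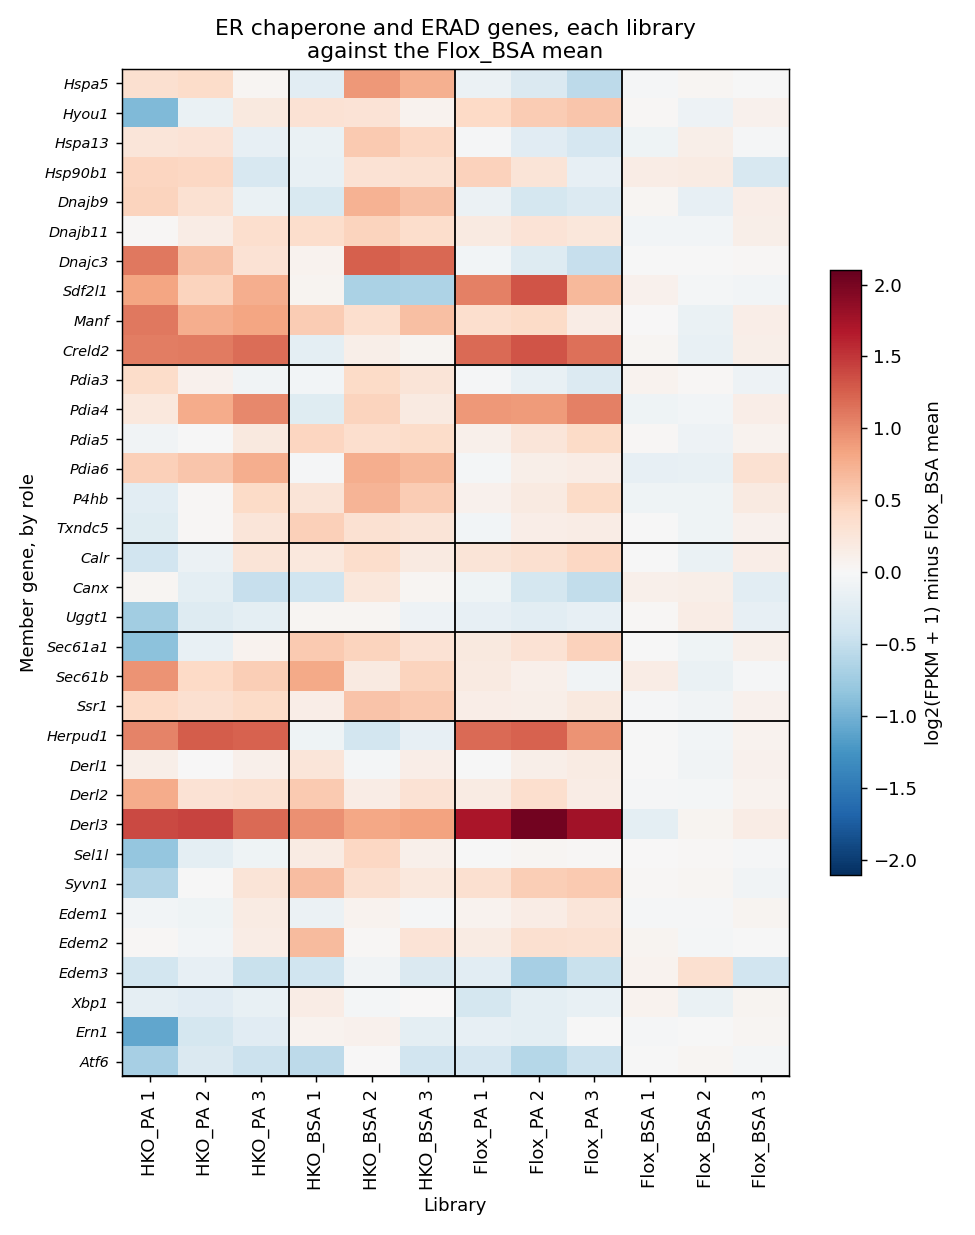
Level of each of the 34 members (rows, ordered by role) in each of the 12 libraries (columns), as log2(FPKM + 1) minus the mean of Flox_BSA, with red above and blue below that mean. Creld2, Herpud1, Sdf2l1 and Derl3 are red in the PA columns of both genotypes. Within their own rows, Hyou1, Sec61a1 and Ern1 are bluest in HKO_PA 1.

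The members spanned a wide range of expression in FPKM, which is a level per length. In Flox_BSA cells, P4hb, the founding protein disulfide isomerase, had the highest mean level (346 ± 39.8 FPKM, SD, n = 3), followed by the calcium-binding lectin chaperone Calr (226 ± 22.4 FPKM, SD, n = 3), Hspa5 (152 ± 4.05 FPKM, SD, n = 3) and the retrotranslocation factor Derl1 (129 ± 8.17 FPKM, SD, n = 3). The lowest were Derl3 (0.5898 ± 0.201 FPKM, SD, n = 3), Hspa13, an Hsp70 relative of microsomes (1.77 ± 0.206 FPKM, SD, n = 3), and Edem3, which trims mannose from misfolded glycoproteins (2.26 ± 0.795 FPKM, SD, n = 3). Summed over the 34 members, the level lay between 1681 and 2429 FPKM over the 12 libraries.

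In Flox cells, 5 members rose with PA and none fell in the model reported. Derl3, an ERAD membrane protein, Creld2, an ER-resident isomerase induced by ER stress, Herpud1, an organiser of the ERAD ligase complex, Sdf2l1, a partner of ER J proteins, and Pdia4, a disulfide isomerase, were all higher in Flox_PA than in Flox_BSA. These 5 are 14.7% of the members, where 1.29% of all genes tested rose and 0.913% fell (limma, Benjamini-Hochberg adjusted p under 0.05). At an unadjusted p under 0.05, 9 members (26.5%) were higher and 2 (5.88%) lower, against 8.83% and 7.10% of all genes. In 20 members the Flox_PA and Flox_BSA libraries did not overlap, 16 higher and 4 lower, where 39% of all genes did not overlap in either direction. The median log2 difference was 0.16 over the members and 0.01 over all genes tested. Without Flox_PA 3 the count was 4, and without any other of the 6 Flox libraries it was 3. Of all genes, 0.657% to 1.73% passed in these 6 fits, against 2.21% with every library. With only the groups compared, 10 rose and 1 fell, while 15.8% of all genes passed in either direction. The macrophage markers summed to 1564 to 1780 FPKM in Flox_PA and to 1825 to 1936 FPKM in Flox_BSA, and their part in these results was not tested.

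In HKO cells, 3 members rose with PA, Herpud1, Creld2 and Sdf2l1, and none fell. That is 8.82% of the members, where 1.68% of all genes rose and 1.25% fell. At an unadjusted p under 0.05, 6 members (17.6%) were higher and 9 (26.5%) lower, against 9.35% and 11.5% of all genes. By limma-voom on the computed reads 3 rose and 1 fell, where 3% of all genes passed in either direction. In 13 members the HKO_PA and HKO_BSA libraries did not overlap, 5 higher and 8 lower, where 18.2% of all genes did not overlap. The median log2 difference was -0.16 over the members and 0.00 over all genes. Without HKO_PA 3, 9 members passed, 4 higher and 5 lower, as did 7.96% of all genes. Without HKO_PA 1 the count was 3, and without HKO_BSA 2 or HKO_BSA 3 it was 2. Of all genes, 1.71%, 1.32% and 1.47% passed in these fits, in that order, against 2.94% with every library. The macrophage markers summed to 118 to 147 FPKM in HKO_PA and to 79.4 to 112 FPKM in HKO_BSA, and their part was not tested. The p-values here and below measure only the spread between these samples, since the labels do not say whether the libraries of a group came from different mice.

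Among the BiP system genes, Creld2 (ENSMUSG00000023272, chromosome 15, 88819646 to 88826683, plus strand) had 72.8, 73.7 and 77.6 FPKM in HKO_PA against 29.3, 37.3 and 35.3 FPKM in HKO_BSA. It had 78.8, 86.7 and 76.97 FPKM in Flox_PA against 34.8, 30.3 and 37.2 FPKM in Flox_BSA. Every PA library lay above every BSA library of its genotype, and the 2 genotypes had nearly the same levels. The change with PA was log2 1.12, SE 0.13, adjusted p = 3.2e-04 in HKO and log2 1.22, SE 0.13, adjusted p = 3.0e-04 in Flox, and it passed under all 17 alternatives in each genotype. Sdf2l1 (ENSMUSG00000022769, chromosome 16, 17130138 to 17132383, minus strand) had 33.6, 25.9 and 31.9 FPKM in HKO_PA against 19.3, 11.3 and 11.5 FPKM in HKO_BSA, and 39.4, 47.4 and 30.3 FPKM in Flox_PA against 19.8, 17.8 and 17.7 FPKM in Flox_BSA. The groups did not overlap within either genotype (log2 1.10, SE 0.20, adjusted p = 0.0109 in HKO and log2 1.02, SE 0.20, adjusted p = 0.0191 in Flox). The Flox call was lost without Flox_BSA 1 (adjusted p = 0.065), Flox_BSA 2 (0.0895), Flox_BSA 3 (0.0702), Flox_PA 1 (0.0585) or Flox_PA 2 (0.125), and the HKO call without HKO_BSA 2 (0.0545) or HKO_BSA 3 (0.052). With no filter on low values it missed the threshold in HKO (0.0546) and in Flox (0.0589), and in HKO also with only the groups compared (0.1004).

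Hspa5 itself did not pass in either genotype. It had 191, 198 and 156 FPKM in HKO_PA against 129, 287 and 255 FPKM in HKO_BSA, and 139, 122 and 104 FPKM in Flox_PA against 148, 156 and 151 FPKM in Flox_BSA. All 3 Flox_PA libraries were lower than all 3 Flox_BSA libraries, while the HKO groups overlapped, with HKO_BSA 1 below all HKO_PA libraries. The log2 difference was -0.23 in HKO (95% interval -0.74 to 0.29, adjusted p = 0.609) and -0.33 in Flox (95% interval -0.84 to 0.19, adjusted p = 0.508). Hsp90b1, the ER Hsp90 known as GRP94, also did not pass in HKO (log2 0.03, adjusted p = 0.957) or in Flox (log2 0.19, adjusted p = 0.707). Nor did the BiP co-chaperones Dnajb9, Dnajb11 and Dnajc3, whose log2 differences lay at -0.12, -0.22 and -0.17 in HKO and at -0.26, 0.24 and -0.27 in Flox. Manf, a secreted ER stress protein that binds BiP, did not overlap between PA and BSA in either genotype and did not pass (log2 0.40, adjusted p = 0.136 in HKO and log2 0.30, adjusted p = 0.313 in Flox).

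Among the ERAD genes, Herpud1 (ENSMUSG00000031770, chromosome 8, 94386438 to 94395377, plus strand) had 36.6, 43.1 and 42.04 FPKM in HKO_PA against 16.2, 12.9 and 15.2 FPKM in HKO_BSA. It had 40.8, 41.9 and 34.3 FPKM in Flox_PA against 17.1, 16.6 and 18.1 FPKM in Flox_BSA. No PA library came near a BSA library. The change was log2 1.40, SE 0.13, adjusted p = 5.3e-05 in HKO and log2 1.13, SE 0.13, adjusted p = 4.7e-04 in Flox, and it passed under all 17 alternatives in each genotype.

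Derl3 (ENSMUSG00000009092, chromosome 10, 75893413 to 75895941, plus strand) differed most between the genotypes in its change with PA. It had 3.14, 3.22 and 2.59 FPKM in HKO_PA against 2.07, 1.78 and 1.83 FPKM in HKO_BSA, and 4.18, 5.46 and 4.36 FPKM in Flox_PA against 0.367, 0.646 and 0.756 FPKM in Flox_BSA. These low levels rest on 84, 97 and 78 reads in HKO_PA, 64, 56 and 63 in HKO_BSA, 152, 184 and 153 in Flox_PA, and 14, 24 and 27 in Flox_BSA. The 4 groups did not overlap, with Flox_PA highest, then HKO_PA, HKO_BSA and Flox_BSA. Mean FPKM with PA was 1.58 times that with BSA in HKO, where the difference did not pass (log2 0.46, SE 0.13, adjusted p = 0.0837), and 7.91 times in Flox (log2 1.83, SE 0.13, adjusted p = 1.2e-05). The scale log2(FPKM + 1) understates changes at these levels.

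The other 7 ERAD members, which include the ligase Syvn1 (HRD1), its partner Sel1l, the derlins Derl1 and Derl2 and the mannosidase-like Edem1, Edem2 and Edem3, did not pass in either genotype. Their log2 differences with PA ran from -0.61 for Sel1l to 0.13 for Derl2 in HKO, and from -0.46 for Edem3 to 0.46 for Syvn1 in Flox.

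Of the 6 members grouped as disulfide isomerases, which leave out Creld2, Pdia4 was the single one to pass. It had 60.1, 89.1 and 105 FPKM in HKO_PA against 43.2, 71.5 and 59.4 FPKM in HKO_BSA, and 98.6, 96.96 and 108 FPKM in Flox_PA against 48.6, 49.6 and 57.4 FPKM in Flox_BSA. The Flox groups were far apart, whereas HKO_PA 1 lay within the HKO_BSA range. Pdia4 (ENSMUSG00000025823, chromosome 6, 47796141 to 47813430, minus strand) rose in Flox (log2 0.96, SE 0.21, adjusted p = 0.0286) and did not pass in HKO (log2 0.53, SE 0.21, adjusted p = 0.166), and the difference between these was not past the threshold (log2 -0.43, adjusted p = 0.434). Without HKO_PA 1 the difference in HKO was log2 0.76 (adjusted p = 0.0604), and that between the genotypes was log2 -0.20 (adjusted p = 0.757). The Flox call was lost in 9 of 17 alternatives. These were the omission of any of the 6 Flox libraries (adjusted p between 0.0619 and 0.139), no filter on low values, quantile normalization and removal of the length trend. The other isomerases, Pdia3, Pdia5, Pdia6, P4hb and Txndc5, had log2 differences between -0.44 and 0.14 in HKO and between -0.15 and 0.25 in Flox.

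The lectin cycle (Calr, Canx and the glucosyltransferase Uggt1), the translocon (Sec61a1, Sec61b and Ssr1) and the sensors had no member past the threshold with PA. Xbp1 was lower in all 3 PA libraries of both genotypes by little, with 81.9, 79.4 and 84.6 FPKM in HKO_PA against 105, 91.4 and 94.2 FPKM in HKO_BSA, and 72.8, 81.4 and 84.6 FPKM in Flox_PA against 99.3, 85.6 and 97.8 FPKM in Flox_BSA. Neither difference passed (log2 -0.24, adjusted p = 0.278 in HKO and log2 -0.24, adjusted p = 0.341 in Flox). These are gene-level values, so the spliced and unspliced Xbp1 messages are summed. Atf6 had 3.52, 4.99 and 4.38 FPKM in HKO_PA and 4.03, 6.38 and 4.55 FPKM in HKO_BSA, and 4.76, 3.88 and 4.39 FPKM in Flox_PA and 6.33, 6.56 and 6.19 FPKM in Flox_BSA. The Flox groups did not overlap and the HKO groups did, and neither passed (log2 -0.17, adjusted p = 0.558 in HKO and log2 -0.46, adjusted p = 0.169 in Flox).

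**Figure D2:**
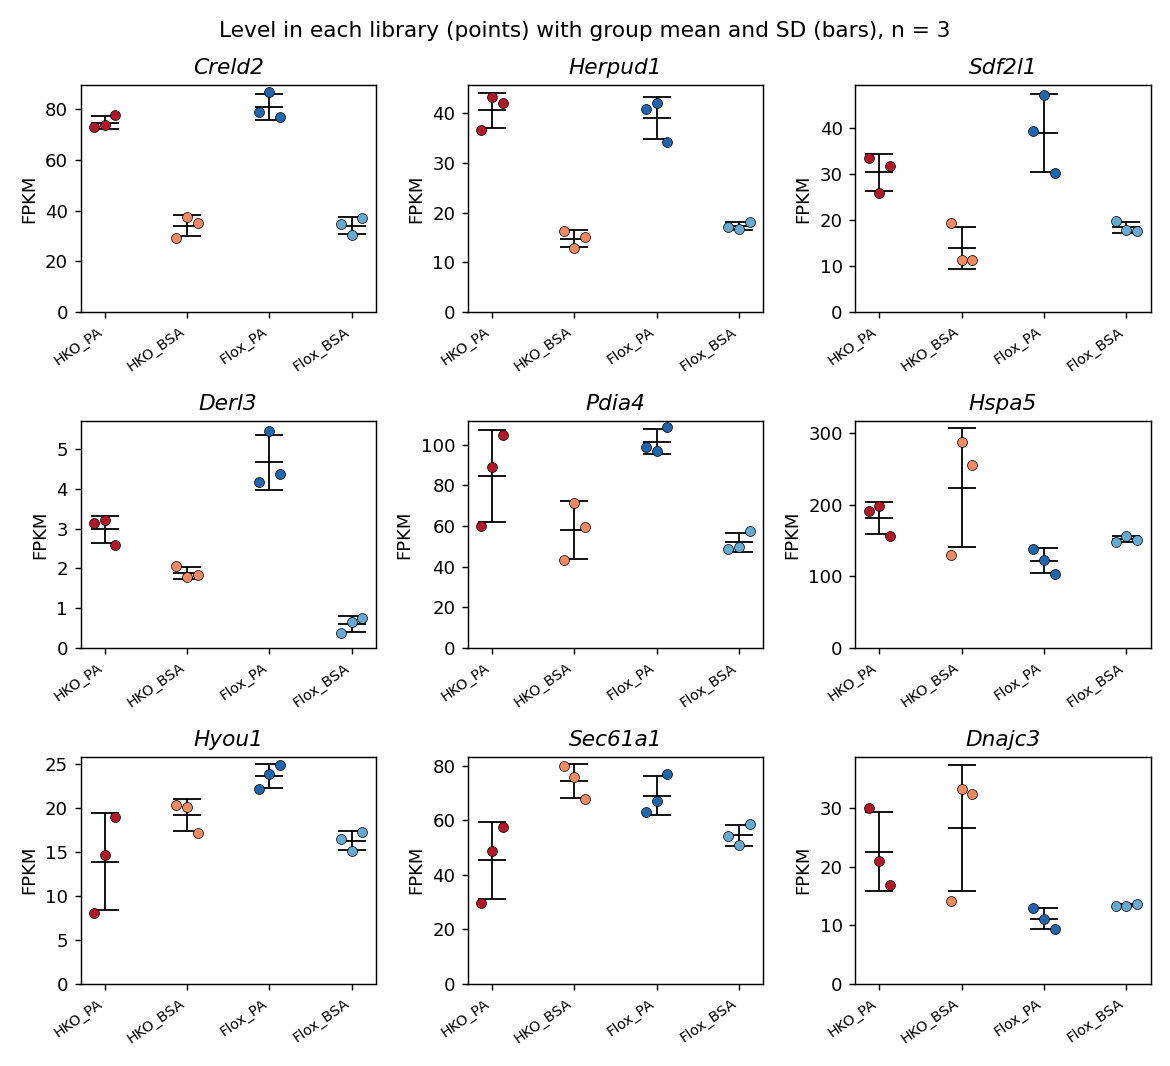
FPKM per library (points) with group mean and SD (bars, n = 3) for 9 members named in the text, with HKO_PA, HKO_BSA, Flox_PA and Flox_BSA from left to right in each panel. Creld2 and Herpud1 separate by PA in both genotypes, Derl3 separates in all 4 groups, and Dnajc3 lies higher in HKO than in Flox under the same addition.

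The members with a full ER stress element did not move as one with PA. Of the 11 with an ERSE or ERSE-II, 5 had a positive log2 difference in HKO (median -0.17) and 8 in Flox (median 0.24). Of the 17 with a promoter entry and neither element, 5 were positive in HKO (median -0.12) and 11 in Flox (median 0.08). Creld2, Derl3 and Herpud1, whose elements are printed above, stood at the top of both lists of 11, and Hspa5, with an ERSE like Creld2 and Derl3, was negative in both genotypes. Sdf2l1 rose in both genotypes with neither full element in its window.

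**Figure D3:**
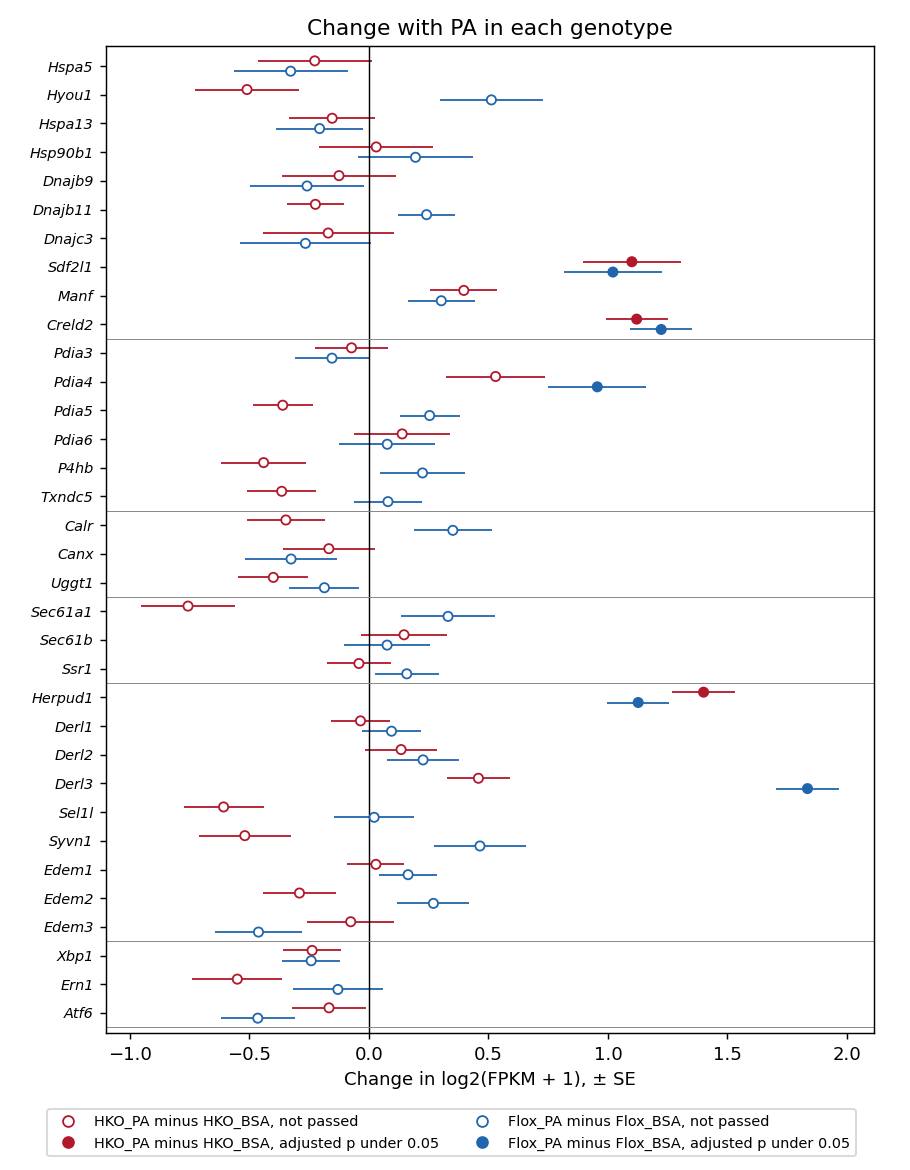
Change in log2(FPKM + 1) of PA minus BSA with its SE (limma, horizontal axis) for each of the 34 members in HKO and in Flox, with filled points for an adjusted p under 0.05. Creld2, Herpud1 and Sdf2l1 lie near or above 1 in both genotypes, Derl3 stands at 0.46 in HKO and 1.83 in Flox, and Hyou1 and Sec61a1 lie below 0 in HKO and above 0 in Flox.

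Set side by side, 11 members had a positive PA difference in both genotypes, 11 a negative one in both, and 12 a negative one in HKO with a positive one in Flox. No member had the reverse. Of the 9743 genes tested, 2536 were positive in both, 2301 negative in both, 2572 negative in HKO and positive in Flox, and 2332 the reverse. The 2 comparisons share no library, and across the 34 members their differences had a Pearson r of 0.62 and a Spearman rho of 0.26, against 0.12 and 0.02 across all genes tested. These are descriptions across genes measured in the same libraries, which are not independent replicates.

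The test of the difference between genotypes, the interaction (PA effect in HKO minus PA effect in Flox), called Derl3 alone (log2 -1.38, SE 0.19, adjusted p = 0.0129). That is 1 of 34 members (2.94%), where 0.267% of all genes passed in either direction, and 11 members (32.4%) had an unadjusted p under 0.05, all 11 with a negative interaction. Of all genes, 11.0% had a negative and 6.41% a positive interaction at that level. The Derl3 value ranged from -2.36 to -1.27 over 21 alternatives, and its call was lost with the replicate block (adjusted p = 0.108) and without Flox_PA 2 (0.0594). Next by size came Sec61a1, the pore of the translocon (log2 -1.09, adjusted p = 0.105), Hyou1, the ER Hsp110 that exchanges nucleotide on BiP (log2 -1.02, adjusted p = 0.147), and Syvn1 (log2 -0.98, adjusted p = 0.124), none past the threshold. Without HKO_PA 1 their interactions were log2 -0.82 for Sec61a1, -0.70 for Hyou1 and -0.73 for Syvn1 (adjusted p = 0.0897, 0.136 and 0.145). The count of members was 1 without HKO_PA 1, 0 without Flox_PA 2 and 0 with the replicate block. Of all genes, 0.287%, 0% and 0.0308% passed in these fits, in that order. Without HKO_PA 3, 5 members passed, Derl3, Sec61a1, Hyou1, Syvn1 and Calr, and so did 265 of all genes tested, against 26 with every library.

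In 3 of the 34 members (8.82%), all PA libraries lay below all BSA libraries in HKO and above them in Flox, against 1.93% of all genes tested. Sec61a1 had 29.7, 48.6 and 57.6 FPKM in HKO_PA against 80.1, 76.1 and 67.8 FPKM in HKO_BSA, and 63.1, 67.1 and 76.95 FPKM in Flox_PA against 54.4, 50.9 and 58.6 FPKM in Flox_BSA. Pdia5, a disulfide isomerase linked to ATF6 activation, had 24.4, 25.9 and 29.9 FPKM in HKO_PA against 35.9, 33.4 and 34.2 FPKM in HKO_BSA, and 27.99, 30.9 and 34.7 FPKM in Flox_PA against 26.3, 24.1 and 27.4 FPKM in Flox_BSA. Dnajb11, the J protein ERdj3, had 17.1, 18.9 and 21.5 FPKM in HKO_PA against 21.96, 23.5 and 21.9 FPKM in HKO_BSA, and 19.3, 20.7 and 19.9 FPKM in Flox_PA against 15.95, 15.99 and 18.4 FPKM in Flox_BSA. None of these 3 passed in a PA comparison or in the interaction.

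Between the genotypes under BSA, 6 members were higher in HKO and none lower. They were Derl3, Dnajc3, Manf, Pdia5, Dnajb11 and Ssr1, or 17.6% of the members, where 9.63% of all genes were higher and 10.8% lower. No member was lower at an unadjusted p under 0.05, while 13 (38.2%) were higher, against 15.4% of all genes lower and 16.9% higher. By limma-voom 7 members were higher and none lower, where 20.6% of all genes passed in either direction. In 15 members the groups did not overlap, 14 higher and 1 lower (Herpud1), where 37.7% of all genes did not overlap. The median log2 difference was 0.27 over the members and 0.04 over all genes. Leaving out single libraries moved the count from 6 to 1 without Flox_BSA 1, Flox_BSA 2 or HKO_BSA 3, to 3 without Flox_BSA 3, and to 11 without HKO_BSA 1. The 11 were 10 higher and 1 lower, and without HKO_BSA 2 the split was 4 higher and 1 lower. Over these fits 13.6% to 24.4% of all genes passed in either direction, against 20.5% with every library. The macrophage markers summed to 79.4 to 112 FPKM in HKO_BSA and to 1825 to 1936 FPKM in Flox_BSA, with none of the 12 at 0 throughout a group. The plasma cell markers, whose parent cells are rich in ER chaperones, summed to 113 to 174 FPKM in HKO_BSA and to 154 to 167 FPKM in Flox_BSA, with 1 of the 9 found, Tnfrsf17, at 0 throughout both groups. Sdc1 (mean 99.0 FPKM in HKO_BSA and 90.7 FPKM in Flox_BSA) and Fkbp11 (35.4 FPKM in HKO_BSA and 27.5 FPKM in Flox_BSA) made up most of that sum. Of the immunoglobulin genes, Igkc had 0, 0.238 and 0.218 FPKM in HKO_BSA against 26.5, 22.7 and 30.8 FPKM in Flox_BSA (log2 -4.58, adjusted p = 4.9e-10), and Igha had 0.0483, 0 and 0 FPKM in HKO_BSA against 8.28, 8.24 and 7.47 FPKM in Flox_BSA (log2 -3.15, adjusted p = 1.6e-10), both lower in HKO. Jchain and Mzb1, below the filter, also lay lower in HKO_BSA without overlap. In bulk samples, fewer cells of a type and less RNA per cell cannot be told apart, and the part of these other cells in the genotype differences was not tested.

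Under PA, 3 members were higher in HKO and 5 lower. Dnajc3, Manf and Sec61b were higher (8.82%, where 16.9% of all genes were), and Hyou1, Sec61a1, Syvn1, Derl3 and Calr were lower (14.7%, where 18.8% of all genes were). In 14 members the groups did not overlap, 6 higher and 8 lower, where 52% of all genes did not overlap. The median log2 difference was -0.04 over the members and 0.00 over all genes. Neither share of members was above that of all genes. The split was 7 higher and 4 lower with the length trend removed, and 5 higher and 2 lower with only the groups compared. Of all genes, 34.7% and 30.4% passed in these fits, in that order, against 35.7% in the model reported. Without Flox_PA 2, Flox_PA 3 or HKO_PA 1 the count was 3 instead of 8. In these fits 25.6%, 23.4% and 24.7% of all genes passed, in that order. The macrophage markers summed to 118 to 147 FPKM in HKO_PA and to 1564 to 1780 FPKM in Flox_PA.

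Dnajc3 and Manf passed under both additions. Dnajc3, the co-chaperone p58IPK that also inhibits PERK, had 29.995, 20.99 and 16.9 FPKM in HKO_PA and 14.1, 33.4 and 32.4 FPKM in HKO_BSA, against 12.9, 11.01 and 9.32 FPKM in Flox_PA and 13.3, 13.4 and 13.6 FPKM in Flox_BSA. All HKO libraries were above the Flox libraries of the same addition, HKO_BSA 1 only just (log2 0.94, SE 0.27, adjusted p = 0.0177 under PA and log2 0.85, SE 0.27, adjusted p = 0.0438 under BSA). Manf had 116, 90.4 and 95.7 FPKM in HKO_PA and 77.5, 68.1 and 82.5 FPKM in HKO_BSA, against 68.1, 70.4 and 59.4 FPKM in Flox_PA and 53.1, 47.99 and 58.8 FPKM in Flox_BSA. Its groups did not overlap under either addition (log2 0.60, SE 0.14, adjusted p = 0.00535 under PA and log2 0.50, SE 0.14, adjusted p = 0.0206 under BSA). The Dnajc3 call under BSA was lost in 9 of 17 alternatives. These include the omission of any of the 6 BSA libraries but HKO_BSA 1 (adjusted p between 0.088 and 0.174). Under PA it was lost in 3 of 17, which include the omission of Flox_PA 3 (0.0723) or HKO_PA 1 (0.0817). The Manf call under BSA was lost without Flox_BSA 1 (0.0698), Flox_BSA 2 (0.105) or HKO_BSA 3 (0.095), and that under PA passed under all 17 alternatives.

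Derl3 changed sides: HKO was lower under PA (log2 -0.51, SE 0.13, adjusted p = 0.0105) and higher under BSA (log2 0.87, SE 0.13, adjusted p = 2.5e-04). The call under PA was lost without Flox_PA 2 (adjusted p = 0.0556). Hyou1 had 8.09, 14.7 and 19.004 FPKM in HKO_PA against 22.2, 23.9 and 24.9 FPKM in Flox_PA, and 20.4, 20.2 and 17.2 FPKM in HKO_BSA against 16.5, 15.1 and 17.3 FPKM in Flox_BSA. It was lower in all HKO_PA libraries, with HKO_PA 1 far below the other HKO_PA libraries (log2 -0.80, SE 0.22, adjusted p = 0.0123), and without HKO_PA 1 the difference was log2 -0.48 with an adjusted p of 0.0226. For Sec61a1, whose values are given above, the difference between HKO and Flox under PA was log2 -0.64, SE 0.20, adjusted p = 0.0213, and log2 -0.37 with an adjusted p of 0.0637 without HKO_PA 1. That call was lost in 5 of 17 alternatives, which include the omission of HKO_PA 1, Flox_PA 2 (0.0514) or Flox_PA 3 (0.0862).

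Syvn1 had 5.69, 9.23 and 11.4 FPKM in HKO_PA against 11.96, 13.7 and 14.1 FPKM in Flox_PA, and 15.1, 11.9 and 11.01 FPKM in HKO_BSA against 9.47, 9.64 and 8.83 FPKM in Flox_BSA. HKO was lower under PA without overlap (log2 -0.59, adjusted p = 0.0308) and not past the threshold under BSA (log2 0.40, adjusted p = 0.176). Calr had 169, 206 and 270.4 FPKM in HKO_PA against 273, 284 and 306 FPKM in Flox_PA, and 261, 290.3 and 257 FPKM in HKO_BSA against 225, 204 and 249 FPKM in Flox_BSA. It followed the same pattern (log2 -0.44, adjusted p = 0.0485 under PA and log2 0.26, adjusted p = 0.304 under BSA). Without HKO_PA 1, neither of them passed under PA (Syvn1 log2 -0.34, adjusted p = 0.116, and Calr log2 -0.28, adjusted p = 0.179). The Syvn1 call was lost in 6 of 17 alternatives, which include the omission of HKO_PA 1, Flox_PA 2 (0.0868) or Flox_PA 3 (0.1). The Calr call was lost in 9 of 17. These include the omission of HKO_PA 1, Flox_PA 1 (0.0791), Flox_PA 2 (0.107), Flox_PA 3 (0.151) or HKO_PA 2 (0.105).

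Of the translocon genes, Sec61b, the small beta subunit, had 181, 126 and 135 FPKM in HKO_PA and 164, 106 and 129 FPKM in HKO_BSA, against 107, 101 and 88.9 FPKM in Flox_PA and 104, 85.3 and 92.2 FPKM in Flox_BSA. HKO lay above Flox in all libraries under both additions and passed under PA (log2 0.55, adjusted p = 0.0283, against log2 0.48, adjusted p = 0.0758 under BSA). Ssr1, the alpha subunit of the translocon-associated TRAP complex, passed under BSA, with 16.7, 23.5 and 22.6 FPKM in HKO_BSA against 14.9, 14.4 and 16.1 FPKM in Flox_BSA (log2 0.43, adjusted p = 0.0362). Pdia5 and Dnajb11, with values above, passed under BSA (log2 0.40, adjusted p = 0.0372 and log2 0.40, adjusted p = 0.0298) and not under PA (log2 -0.22, adjusted p = 0.193 and log2 -0.06, adjusted p = 0.714). The Sec61b call was lost in 4 of 17 alternatives, which include the omission of Flox_PA 2 (0.0658), Flox_PA 3 (0.112) or HKO_PA 1 (log2 0.39, 0.114). The BSA calls were lost in 8 of 17 alternatives for Pdia5, 6 for Ssr1 and 5 for Dnajb11. These include the omission of any of the 6 BSA libraries for Pdia5 (0.0503 to 0.155) and of any but HKO_BSA 1 for Ssr1 (0.0542 to 0.148). For Dnajb11 they include the omission of Flox_BSA 1, Flox_BSA 2, HKO_BSA 2 or HKO_BSA 3 (0.0739 to 0.124).

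Several abundant chaperones showed no call between the genotypes. Hspa5 did not overlap under PA, with HKO higher, and did not pass (log2 0.58, adjusted p = 0.0738 under PA and log2 0.48, adjusted p = 0.187 under BSA). P4hb had 296, 353 and 455 FPKM in HKO_PA against 368, 392 and 454 FPKM in Flox_PA, and 417, 569 and 501 FPKM in HKO_BSA against 324, 322 and 392 FPKM in Flox_BSA, without overlap under BSA alone (log2 0.51, adjusted p = 0.0583). Pdia6 had 70.3, 74.6 and 85.1 FPKM in HKO_PA against 48.2, 53.8 and 55.4 FPKM in Flox_PA, and 48.6, 84.99 and 80.5 FPKM in HKO_BSA against 44.03, 44.4 and 62.5 FPKM in Flox_BSA (log2 0.54, adjusted p = 0.0523 under PA and log2 0.47, adjusted p = 0.119 under BSA). The wide spread in HKO_BSA came with a low HKO_BSA 1 for Hspa5, Dnajc3 and Pdia6.

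Canx, the membrane-bound partner of Calr, overlapped throughout, with 37.8, 31.95 and 26.2 FPKM in HKO_PA against 34.5, 28.4 and 25.6 FPKM in Flox_PA, and 27.3, 43.8 and 37.8 FPKM in HKO_BSA against 39.9, 40.2 and 31.4 FPKM in Flox_BSA. Uggt1, which tags misfolded glycoproteins for another folding round, had 1.84, 2.91 and 3.09 FPKM in HKO_PA against 3.21, 3.06 and 3.21 FPKM in Flox_PA, and 3.88, 3.86 and 3.403 FPKM in HKO_BSA against 3.81, 4.25 and 3.19 FPKM in Flox_BSA. Ern1 had 5.68, 10.04 and 11.1 FPKM in HKO_PA against 11.6, 11.4 and 13.1 FPKM in Flox_PA, and 14.02, 14.1 and 11.4 FPKM in HKO_BSA against 12.9, 13.2 and 13.6 FPKM in Flox_BSA. For Ern1 the groups overlapped under BSA and not under PA, where HKO was lower without passing (log2 -0.43, adjusted p = 0.0868). Without HKO_PA 1 that Ern1 difference was log2 -0.17 (adjusted p = 0.359). Xbp1 and Atf6 did not pass under PA (log2 0.05, adjusted p = 0.796 and log2 -0.02, adjusted p = 0.936) or BSA (log2 0.04, adjusted p = 0.849 and log2 -0.32, adjusted p = 0.178).

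**Figure D4:**
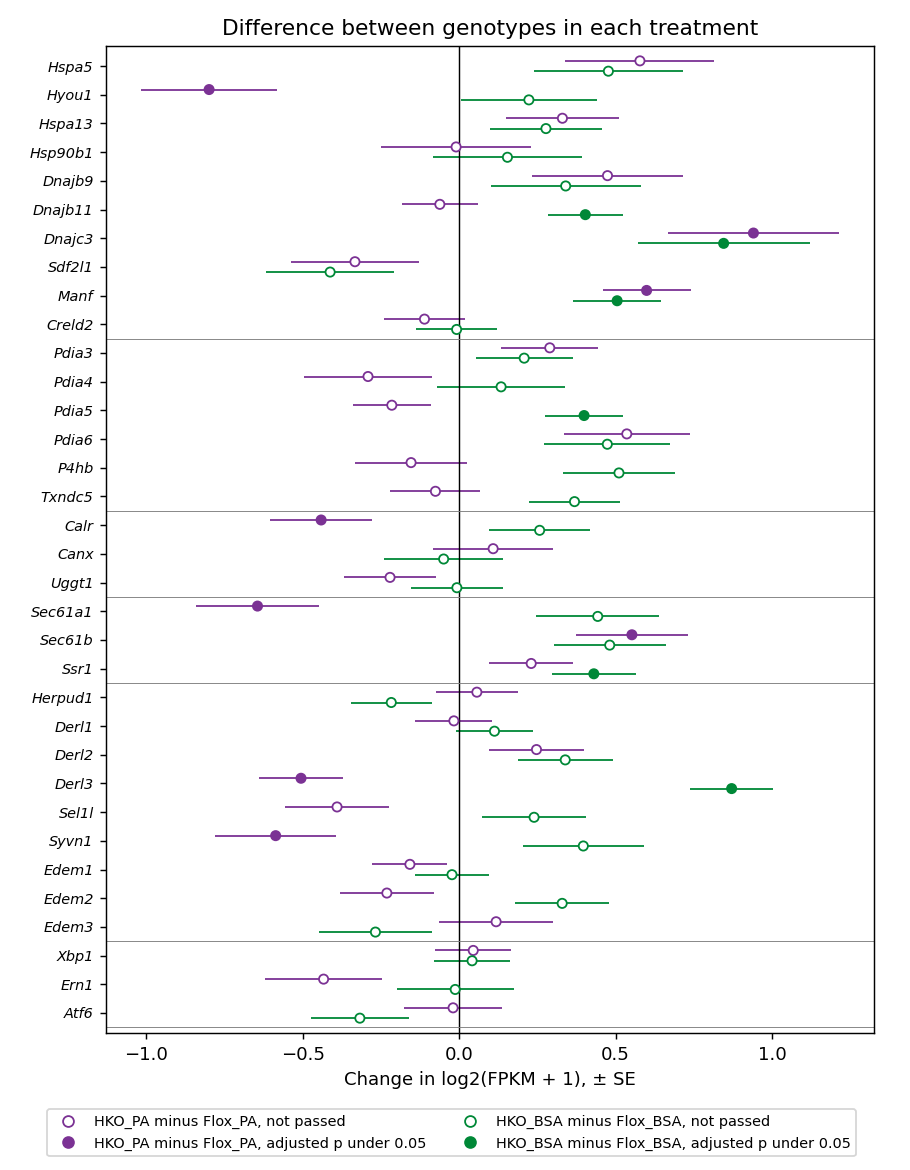
Change in log2(FPKM + 1) of HKO minus Flox with its SE (limma, horizontal axis) for each of the 34 members under PA and under BSA, with filled points for an adjusted p under 0.05. Dnajc3 and Manf lie above 0 under both additions, and Derl3, Hyou1, Sec61a1, Syvn1 and Calr lie below 0 under PA and above 0 under BSA.

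The wider ER machinery was read from 7 further lists with 146 genes, of which 130 were tested. With PA in Flox none of the 130 passed by limma or by limma-voom. Of all genes, 1.29% rose and 0.913% fell by limma, and 2.04% passed in either direction by limma-voom. At an unadjusted p under 0.05 (limma), 5 were higher (3.85%, against 8.83% of all genes) and 6 lower (4.62%, against 7.10%). With PA in HKO 1 rose (0.769%, against 1.68% of all genes) and 4 fell (3.08%, against 1.25%). Selenok, a selenoprotein of the ERAD machinery, rose (log2 0.80, adjusted p = 0.011), and the secretory-cell transcription factor Bhlha15 (log2 -1.12, adjusted p = 8.2e-04), the ER membrane protein Wfs1 (log2 -0.91, adjusted p = 0.0196), the sulfhydryl oxidase Qsox1 (log2 -0.88, adjusted p = 0.0242) and the glucosidase II subunit Ganab (log2 -0.69, adjusted p = 0.0478) fell. Without HKO_PA 1 the first 3 still passed (log2 0.68, -1.04 and -0.65, adjusted p = 0.0309, 0.00371 and 0.0237), while Qsox1 (log2 -0.70, 0.0759) and Ganab (log2 -0.50, 0.132) did not. None passed in the interaction (limma, and none by limma-voom), where 0.267% of all genes passed by limma and 0.308% by limma-voom. At an unadjusted p under 0.05, 25 had a negative interaction (19.2%, against 11.0% of all genes) and 2 a positive one (1.54%, against 6.41%).

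Between the genotypes under BSA, 19 of the 130 were higher in HKO (14.6%, against 9.63% of all genes) and 1 lower (0.769%, against 10.8%). Of ER to Golgi transport, the KDEL receptor Kdelr3, which returns ER residents from the Golgi (log2 1.43, adjusted p = 5.8e-06), and the SNARE protein Bet1 (log2 0.67, adjusted p = 0.0125) were higher. So were Tmx2, a membrane thioredoxin (log2 0.78, adjusted p = 0.0073), and Prdx4, the ER peroxiredoxin (log2 0.69, adjusted p = 0.0046). The oligosaccharyltransferase subunit Dad1 (log2 0.75, adjusted p = 0.00436), Ganab (log2 0.52, adjusted p = 0.0456), Spcs1 of the signal peptidase (log2 0.58, adjusted p = 0.0201) and the translocating chain protein Tram1 (log2 0.56, adjusted p = 0.0466) were also higher. Among the sensors, Creb3 (log2 0.50, adjusted p = 0.0215) and Eif2ak3, which encodes PERK (log2 0.44, adjusted p = 0.0185), were higher, as was Cnpy2 (log2 0.56, adjusted p = 0.0271), while the collagen chaperone Serpinh1 was lower (log2 -0.65, adjusted p = 0.00784).

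Under PA, 23 of the 130 were higher in HKO (17.7%, near the 16.9% of all genes) and 12 lower (9.23%, against 18.8%). Sar1b, the COPII GTPase (log2 1.21, adjusted p = 1.2e-04), Kdelr3 (log2 1.04, adjusted p = 1.5e-04), Prdx4 (log2 0.97, adjusted p = 2.8e-04) and Tmx2 (log2 0.88, adjusted p = 0.00249) were higher. Sdf2, the paralog of Sdf2l1 (log2 0.93, adjusted p = 4.6e-04), Spcs1 (log2 0.86, adjusted p = 0.00117), the translocon gamma subunit Sec61g (log2 0.76, adjusted p = 0.01), the oligosaccharyltransferase subunits Ostc (log2 0.79, adjusted p = 0.0014) and Dad1 (log2 0.71, adjusted p = 0.00451), and the ERAD components Jkamp (log2 0.81, adjusted p = 0.00301) and Selenos (log2 0.75, adjusted p = 0.00329) were higher too. Serpinh1 (log2 -0.96, adjusted p = 3.9e-04), Atf6b, the ATF6 paralog (log2 -0.83, adjusted p = 0.0011), and Bhlha15 (log2 -0.80, adjusted p = 8.7e-04) were lower. Each of these named under PA also passed without HKO_PA 1. The median log2 difference between HKO and Flox over the 130 was 0.11 under PA and 0.24 under BSA.

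Gene length moved with the changes. Across the 34 members, the Spearman correlation of gene length with the PA difference was -0.51 in HKO and -0.46 in Flox, and across all genes tested it was -0.43 in HKO and -0.13 in Flox. Creld2 (1366 bases), Sdf2l1 (1108), Derl3 (1993), Herpud1 (2333) and Pdia4 (2399), the members that rose with PA, are among the shorter ones, while Uggt1 (12853) and Ssr1 (10431) are the longest. These are descriptions across genes that share their libraries. With the length trend of each library removed, 3 members passed with PA in HKO and 4 in Flox, where the Pdia4 call was lost. Of all genes, 3.46% and 2.62% then passed, in that order, against 2.94% and 2.21% in the model reported. The count for HKO against Flox under BSA was 10 instead of 6, while 24% of all genes passed instead of 20.5%. The part of length in the results was not otherwise tested.

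**Figure D5:**
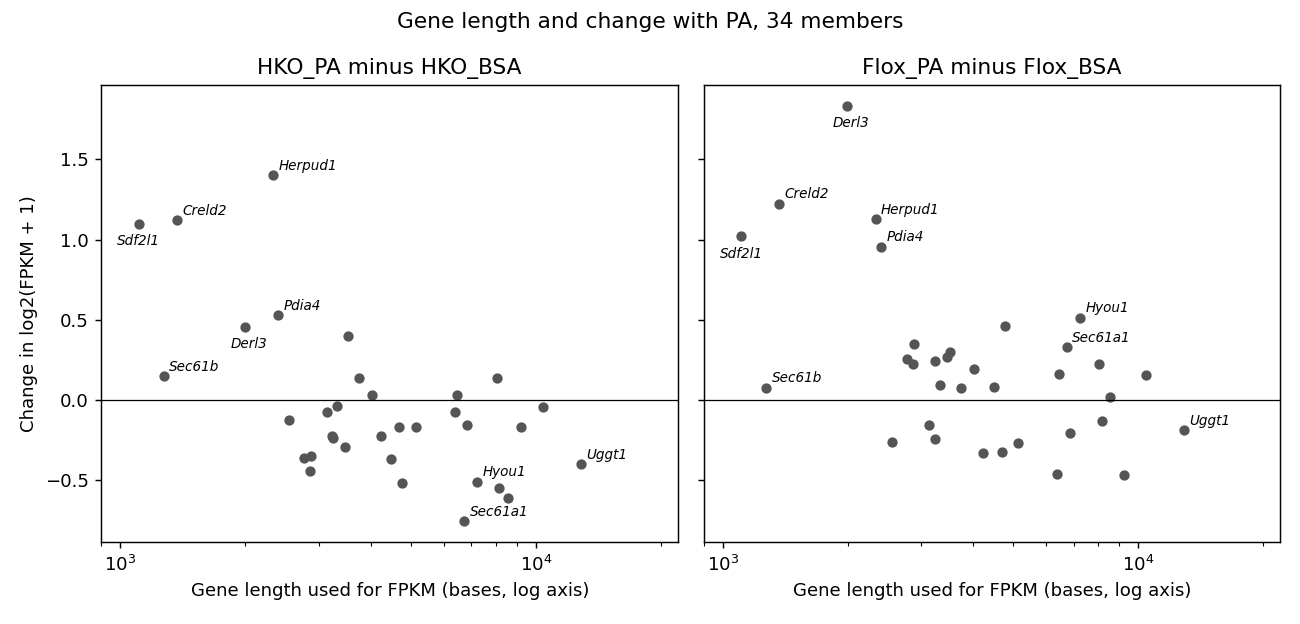
Gene length in bases (log axis) against the log2 difference of PA and BSA for the 34 members, in HKO and in Flox. Creld2, Sdf2l1 and Herpud1 lie at the short end with differences near or above 1 in both panels, and Uggt1, the longest member at 12853 bases, lies below 0 in both panels.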

How the data were processed

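RNA-seq of 12 primary hepatocyte libraries (4 groups of 3, by the genotype and treatment labels) was analysed from 1 table. Its values are FPKM computed by the authors with a gene length that the table also gives. The genome build is GRCm38 (mm10), per the submitters' processing notes. No source used here names the aligner, counter or annotation. RNA came from a column kit and libraries from an NEBNext Ultra kit, per the labels' protocols. All 12 columns were matched to samples by the labels, with 0 per-sample columns unused. FPKM times length was a whole number of steps of 1 read (tolerance 0.01, up to 1000 reads) for 100% of values, so reads could be computed. They came to 15.02 M to 18.42 M per library.

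The deposited FPKM values were put on the scale log2(FPKM + 1), which understates the change of low genes. The 9743 genes that averaged 1 FPKM or more were fitted in 1 limma model (limma 3.58.1, R 4.3.3, variance trend on the mean) with 4 group means and 8 residual degrees of freedom. The 5 comparisons were PA against BSA in each genotype, HKO against Flox under each addition, and their interaction. P-values are two-sided and Benjamini-Hochberg adjusted over all genes tested, with a threshold of 0.05, and "rose" or "fell" means past it. The fit was tested on simulated data. The members, the 7 further ER lists and the tests were chosen with earlier results of these data known. Values per library are given for members that passed with PA or in the interaction, for the 2 members per role with the largest change in each genotype comparison, and, chosen after their values were seen, for Hspa5, Pdia5, Dnajb11 and Ssr1. Of each further list, the 2 members with the largest change among those that passed are named. March6 was not matched by name.

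Alternatives were a pseudocount of 0.1, no filter, a filter at 5 FPKM, quantile normalization, trimmed mean scaling, a fit of only the groups compared, array weights gene by gene, limma-voom on the computed reads, the replicate number as a block, omission of single libraries or of both HKO libraries numbered 1, and, added with results known, removal of a length trend per library. The sample titles repeat the same numbered name under PA and BSA, but no label says that a number marks a shared animal. Deviations of same-numbered PA and BSA libraries correlated at 0.203, -0.015 and 0.316 in Flox and at -0.243, 0.349 and -0.484 in HKO. With the pairs between genotypes, the range was -0.484 to 0.363. The values were not above 0.1 in every pair, so the numbers were not taken as pairs in the model reported. These correlations cannot settle whether a number marks a shared animal. Differently numbered libraries reached 0.509 (HKO_PA 1 with HKO_BSA 3). Counts with the replicate number as a block are therefore given below, where the Derl3 interaction was no longer past the threshold. Promoter sequences are from RefSeq on GRCm38.p6, searched for motifs on both strands.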

Additional observations from a re-analysis of the deposited data

Results flagged for a closer look

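The change of Derl3 with PA differed between the genotypes: the log2 change in HKO minus that in Flox was -1.38 (limma interaction, SE 0.19, adjusted p = 0.0129). All 3 PA libraries lay above all 3 BSA libraries in both genotypes, with mean FPKM 1.58 times as high in HKO and 7.91 times as high in Flox. The call was lost without Flox_PA 2 (adjusted p = 0.0594) and with the replicate block (adjusted p = 0.108).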

How the results depend on the processing

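Among the calls named for single members, 312 of 392 alternative values stayed past the threshold in the same direction, 80 fell short of it and none changed sign. Counts of members that passed depended on how the spread was estimated. With array weights gene by gene, 12 members passed with PA in HKO, 21 with PA in Flox, 24 for HKO against Flox under BSA, 17 under PA and 13 in the interaction, against 3, 5, 6, 8 and 1 in the model reported. With such weights 5 were higher and 7 lower with PA in HKO, and 15 higher and 6 lower with PA in Flox. The split was 20 higher and 4 lower under BSA, 9 and 8 under PA, and 2 and 11 in the interaction. Of all 9743 genes, 15.7%, 37.4%, 59.2%, 51.4% and 17.1% passed in these 5 comparisons with such weights. With only the groups compared, 11 passed with PA in Flox (10 higher and 1 lower) and 2 between genotypes under BSA, as did 15.8% and 19.1% of all genes. With both HKO libraries numbered 1 left out, 7 passed with PA in HKO, 8 with PA in Flox and 16 between genotypes under BSA. The lower ones among them were 3, 1 and 1, in that order. Of all genes, 6.97%, 13.9% and 36.7% passed in the same comparisons, in that order. Without a filter, 3 passed with PA in Flox and 3 between genotypes under PA, as did 0.995% and 14.9% of the 23820 genes then tested. With the length trend removed, 10 passed between genotypes under BSA, as did 24% of all genes. At the 5 FPKM filter Derl3 has no value and the interaction had 0. Leaving out single libraries gave 2 to 9 members with PA in HKO, 3 to 4 with PA in Flox, 1 to 11 between genotypes under BSA, 3 to 10 under PA and 0 to 5 in the interaction. Of all genes, 1.32% to 7.96%, 0.657% to 1.73%, 13.6% to 24.4%, 23.4% to 43.1% and 0% to 2.72% passed in these fits, in that order. Of the 130 other ER genes, over these alternatives, between 1 and 31 passed with PA in HKO (5 in the model reported), 0 and 44 in Flox (0), 5 and 89 between genotypes under BSA (20), 24 and 63 under PA (35) and 0 and 26 in the interaction (0). The shares of all genes tested ran from 0.431% to 15.7%, 0.657% to 37.4%, 11.4% to 59.2%, 14.9% to 51.4% and 0% to 17.1%, in that order. The cause of these shifts was not tested, beyond the fewer samples or genes of a fit. With the replicate block, 3 members passed with PA in HKO, 5 in Flox, 7 between genotypes under BSA, 9 under PA and 0 in the interaction, where Derl3 was no longer past the threshold. Of all genes, 1.16%, 1.13%, 20.4%, 35.3% and 0.0308% passed with the block, in that order. The Derl3 levels rest on 14 to 184 reads per library, which limits their precision.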
